A study of Mus musculus with 2 samples.

Results

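The 6 genes described here encode the hormones of the pancreatic islets, and they were taken by symbol (Ins1, Ins2, Iapp, Gcg, Sst and Ppy) from the 19465 features counted in both libraries. Spatial transcriptomics was performed on sections of orthotopic pancreatic tumors, with 1 library per label, KPC-shZEB1 and KPC-shV. KPC is a mouse pancreatic cancer line from a genetically engineered model driven by Pdx-1-Cre, shV is the control vector, and both groups shared that tumor line, the injection into the pancreas and gemcitabine, which the study's text gives for these tissues and the labels do not name. The host mice of the study were C57BL/6J, BALB/c or NSG animals of 4 to 6 weeks. By the study's text the tumors behind these sections grew in immunocompetent mice, whose strain it does not name there. The protocol gives 2 tumors per group, and which tumor a library covers was not given.

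Each islet is a small cluster of endocrine cells within the exocrine pancreas, whose acinar cells make digestive enzymes. Beta cells release insulin, which lowers blood glucose, together with amylin. Alpha cells release glucagon, which raises blood glucose, delta cells release somatostatin, which restrains both, and PP cells release pancreatic polypeptide. All of these hormones are cut from larger precursors by convertases and stored in dense-core granules with chromogranins and secretogranins. A Visium spot pools the RNA of all cells under it, of whatever type, so a hormone count belongs to a region and not to a cell.

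The genes lie on different chromosomes of the mouse genome (mm10, GENCODE M21). Ins1, a gene of 2 exons encoding insulin 1, lies at chr19:52264297-52265476 on the plus strand. Ins2, which encodes insulin 2, has a main transcript of 3 exons at chr7:142678659-142679726 on the minus strand. Iapp, which encodes amylin, spans chr6:142298423-142303961 with 3 exons on the plus strand. Gcg, which encodes glucagon, has 6 exons within chr2:62474530-62483650 on the minus strand. Sst, which encodes somatostatin, has 2 exons within chr16:23889573-23890958 on the minus strand, and Ppy, which encodes pancreatic polypeptide, has 4 exons within chr11:102099930-102101319 on the minus strand. The coding sequences of Ins1 (324 bases) and Ins2 (330 bases) were identical at 300 of 330 aligned positions, or 90.9%. The split of insulin UMIs between these near-identical genes is therefore uncertain, because which bases the probes cover was not given, and their sum is given beside them.

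Promoters are shown for the 3 members that held a searched motif, since the 6 genes were counted in the same few spots. RefSeq windows (GRCm38.p6) were matched by symbol for 5 of the 6 hormones, with Ins2 the remaining gene, and the 250 bases before each start were searched on both strands for CCATCTG (an E-box of insulin promoters), TGACGTCA (the cAMP response element) and TAATTA (a homeodomain core). The motifs do not overlap one another in these windows, and capitals mark the matches.
Ins1 (chr19:52264047-52264296, plus strand): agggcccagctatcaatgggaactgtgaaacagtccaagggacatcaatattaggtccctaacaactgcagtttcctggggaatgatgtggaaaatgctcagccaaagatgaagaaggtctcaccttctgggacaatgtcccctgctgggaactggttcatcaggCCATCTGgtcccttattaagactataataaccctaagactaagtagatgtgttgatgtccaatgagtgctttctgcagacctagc
Iapp (chr6:142298175-142298424, plus strand): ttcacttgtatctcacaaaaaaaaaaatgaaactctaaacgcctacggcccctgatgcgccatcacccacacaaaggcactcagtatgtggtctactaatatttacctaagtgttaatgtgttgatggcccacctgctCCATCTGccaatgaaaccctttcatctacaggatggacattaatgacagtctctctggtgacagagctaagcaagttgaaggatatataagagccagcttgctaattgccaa
Sst (chr16:23890845-23891094, minus strand): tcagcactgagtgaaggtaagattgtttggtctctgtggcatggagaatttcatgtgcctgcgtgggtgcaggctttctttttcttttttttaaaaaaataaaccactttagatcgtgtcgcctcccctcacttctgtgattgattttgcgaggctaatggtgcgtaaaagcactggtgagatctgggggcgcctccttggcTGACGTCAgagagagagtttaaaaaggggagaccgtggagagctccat
The E-box letters stood 85 bases before the start of Ins1 and 112 bases before that of Iapp, and 4.44% of all 32851 windows of this length hold them. The cAMP response element began 48 bases before the RefSeq start of Sst, which lies 114 bases inside the GENCODE gene given above, so the match falls within that gene, and it is held by 1.55% of windows. TAATTA, held by 4.84% of windows, was in none of the 5, and the windows of Gcg and Ppy held none of the 3 motifs. A match describes letters and not a bound site.

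The counts came to 140493626 unique molecular identifiers (UMIs) in 2220 spots for KPC-shZEB1 and to 172059528 in 3552 spots for KPC-shV. Zeb1, the knockdown target, was at 10.8 UMIs per 1000000 UMIs (CPM) against 12.4, a log2 ratio of -0.20 that turned to 0.30 without acinar-rich spots, so the labels are used below as names only. Acinar-rich spots, in which 19 digestive enzyme genes made up over 20% of the UMIs, numbered 756 (34.1%) and 247 (6.95%), respectively. Those of the section labelled KPC-shV were shallow, with a median of 24224 UMIs per spot against 54769 in its other spots, whereas the medians in the section labelled KPC-shZEB1 were 66507 and 58290. The libraries shared 1718 spot barcodes, which on this platform mark slide positions and not cells. Each label had 1 library, so nothing was replicated or tested, and every interval below is an exact 95% interval that covers counting error only.

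All 6 hormones were detected in both sections, and their summed level was 93.7 CPM (interval 92.1 to 95.3) under the label KPC-shZEB1 against 67.2 CPM (65.9 to 68.4) under KPC-shV. The log2 ratio was 0.48 (0.44 to 0.52), and its direction turned in 3 of 14 alternative settings, among them an average over the CPM of single spots (-0.20). Within acinar-rich spots the direction was the opposite, at 104 against 443 CPM (log2 ratio -2.09), and outside them it was 86.8 against 52.6 CPM (0.72). In sums over a section, fewer endocrine cells and less hormone RNA per cell cannot be told apart.

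Insulin differed between its genes. Ins1 had 785 UMIs (5.59 CPM) in the section labelled KPC-shZEB1 and 1329 (7.72 CPM) in that labelled KPC-shV, and the sign of its log2 ratio of -0.47 (-0.60 to -0.34) turned in 3 of 11 alternatives. Ins2 had 3328 and 3180 UMIs (23.7 and 18.5 CPM), with a log2 ratio at 0.36 (0.29 to 0.43), which turned in 3 of 12. As a pair they stood at 29.3 and 26.2 CPM, a log2 ratio of 0.16 (0.10 to 0.22). Ins1 thus took a smaller share of the insulin UMIs in the section labelled KPC-shZEB1, 19.1% (interval 17.9% to 20.3%) against 29.5% (28.1% to 30.8%). The gap lay mostly in acinar-rich spots, where the share was 13.65% under KPC-shZEB1 against 29.72% under KPC-shV. In all other spots the share was 26.49% (24.43% to 28.64%) against 29.38% (27.81% to 30.98%), and these intervals overlapped.

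Iapp, whose product is released with insulin, had 3771 and 2642 UMIs (26.8 and 15.4 CPM), with its log2 ratio at 0.81 (0.73 to 0.88), which turned in 2 of 12 alternatives. Gcg counted 3284 and 3143 UMIs (23.4 and 18.3 CPM), and the log2 ratio of 0.36 (0.28 to 0.43) turned in 3 of 12 and came to 0.10 without the highest spot of each library. For Sst the counts were 345 and 373 UMIs (2.46 and 2.17 CPM), and the interval of its log2 ratio (-0.04 to 0.39) included 0. Ppy had 1650 against 887 UMIs (11.7 and 5.16 CPM). The log2 ratio for Ppy, 1.19 (1.07 to 1.31), turned in 2 of 12 alternatives and was 0.93 without the highest spot of each library. Without the 1% of spots with the most UMIs of each gene, the log2 ratio was 0.42 (0.12 to 0.72) for Ppy, 0.57 for Gcg, 0.67 for Ins1, 1.17 for Iapp, 1.44 for Ins2 and -0.12 for Sst, so the order of the genes rests on their highest spots. Ppy alone among the 6 reached a log2 ratio of 1, and 2.4% of the 15358 genes counted at 100 UMIs or more in each library did so. None of the 6 was at or below -1, against 9.21% of those genes. The median log2 ratio was 0.36 over the 6 and -0.48 over all genes tested, so relative to the median gene Ins1 was level between the libraries and the other 5 stood higher under KPC-shZEB1.

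The hormone UMIs were gathered in very few spots. Under the label KPC-shZEB1, 50% of the UMIs of Ppy and of Iapp lay in 3 spots each, those of Gcg in 4, and those of Ins1 and of Ins2 in 5 each. For KPC-shV the numbers were 3 for Ins2, 4 for Ins1, 5 for Iapp, 6 for Gcg and 7 for Ppy. Sst was the least gathered, with 12 and 33 spots. For comparison, 10 hormone genes of other organs, summed, needed 276 and 450 spots to reach 50%, and no spot held more than 4 of their UMIs in either library. After scaling each spot to 10000 UMIs, the number for Sst in the section labelled KPC-shV came to 11, and that for Ppy to 13.

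**Figure D1:**
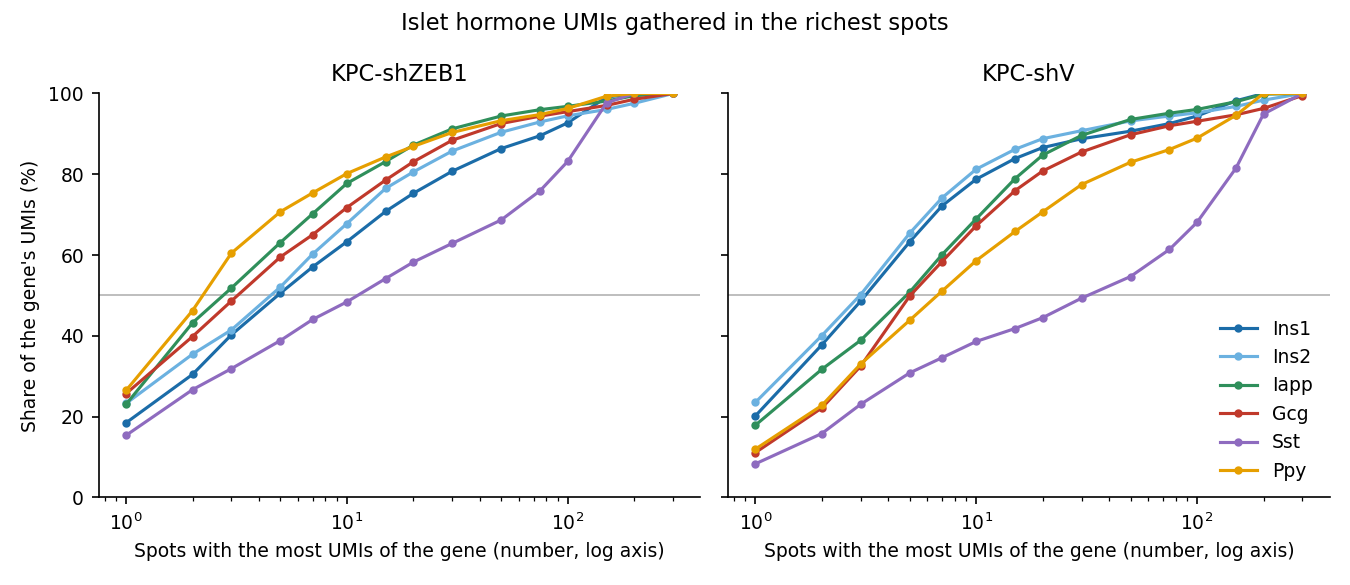
Share of each hormone's UMIs (vertical axis, %) held by the spots with the most UMIs of that gene (horizontal axis, number of spots on a log scale), 1 line per hormone and 1 panel per library, with the grey line at 50%. The single highest spot held 26.5% of the Ppy UMIs and 25.7% of the Gcg UMIs in the section labelled KPC-shZEB1, against 11.9% and 11.1% in the section labelled KPC-shV, and the Sst line lies lowest in both up to 100 spots.

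Most spots with a hormone UMI held exactly 1, and genes that an islet should lack gave such counts too. A spot with at least 1 hormone UMI was common, 742 of 2220 spots (33.4%) and 931 of 3552 (26.2%), but 476 and 666 of them held exactly 1. The 10 hormone genes of other organs, which an islet should lack, gave at least 1 UMI in 36.7% and 35.9% of spots at the same depths. Thinned to 5000 UMIs per spot (4 and 185 shallower spots left out), the 6 hormones were seen in 7.63% (6.56% to 8.81%) and 6.39% (5.58% to 7.26%) of spots, and the genes of other organs in 4.02% and 5.91%. Without the 1% of spots with the most hormone UMIs, the summed level was 17.2 and 9.59 CPM, beside 7.18 and 8.98 CPM for the genes of other organs treated the same way. The remaining spots were thus above that level in both libraries, and by more under KPC-shZEB1. Without the 5% of spots with the most, it was 6.46 and 5.13 CPM, beside 5.97 and 7.54 CPM. These lists hold 6 and 10 genes. On average per gene, the hormones thus stood above the genes of other organs in each of these comparisons. Detection of 1 hormone UMI in a spot was still not taken as a mark of islet tissue, and the spot profiles below rest on spots rich in hormone. Shares and levels in acinar-rich spots and by band of acinar UMIs use every hormone UMI.

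Spots with at least 1% of their UMIs from the 6 hormones, called hormone-rich, numbered 5 of 2220 (0.225%, interval 0.0732% to 0.525%) in the section labelled KPC-shZEB1 and 7 of 3552 (0.197%, 0.0793% to 0.406%) in the section labelled KPC-shV. They held 54.3% and 56.6% of all hormone UMIs. The first spot below the threshold had 0.881% and 0.878%, and the last above it 1.21% and 1.95%. At a threshold of 0.1% there were 29 and 40 spots, which held 84.6% and 85.4% of the hormone UMIs. Shallow spots pass this threshold with few counts. Under KPC-shV a spot of 2258 UMIs passed with 3 hormone UMIs.

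UMIs of different hormones also depend on their probes, whose number per gene was not given, so their order within a spot is no ranking of RNA levels, and spots are compared by 1 hormone at a time. In the section labelled KPC-shZEB1, the richest spot drew 5.49% of its 44272 UMIs from the hormones, with 844 UMIs of Gcg, 761 of Iapp, 406 of Ins2, 235 of Ppy, 145 of Ins1 and 39 of Sst, and only 1.49% from acinar genes. The second, at 3.27%, lay in acinar tissue (49.9% acinar UMIs), and it held 869 UMIs of Iapp and 774 of Ins2, each the most of any spot of that library, with 18 UMIs of Ppy. The third (1.98%, 0.294% acinar) held 437 UMIs of Ppy, the most of any spot, with 325 of Iapp, 200 of Ins2 and 166 of Gcg. The fourth (1.32%, 28.6% acinar) held 270 UMIs of Iapp, 187 of Ins2 and 27 of Ins1, and 0 of Gcg, Sst and Ppy. The fifth (1.21%, 1.46% acinar) held 326 UMIs of Ppy, 192 of Gcg and 83 of Ins2. Ppy thus had 235 to 437 UMIs in the 3 spots of 1.49% acinar UMIs or less, and 18 and 0 in the 2 acinar-rich ones.

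The 7 spots of the section labelled KPC-shV were more alike. Ins2 ranged from 120 to 748 UMIs in them, Ins1 from 55 to 268, Iapp from 66 to 472 and Gcg from 64 to 347, whereas Ppy ranged from 1 to 23 and Sst from 1 to 31. Ins1 and Ins2 together made up 37.6% to 56.8% of their hormone UMIs, against 16.5% to 44.2% in the 5 spots of the other library. Ppy reached 2.53% at most, although the library held 887 Ppy UMIs, of which 68 lay in these 7 spots. Its level in the 7 spots was still higher than in all other spots, at 463 against 4.76 CPM (log2 ratio 6.60). Ppy UMIs themselves count toward the 1% threshold. These spots were shallow, with 12635 to 25766 UMIs against a library median of 52544.5, so a given number of hormone UMIs made a larger percentage there than in the 36547 to 69407 UMIs of the 5 spots labelled KPC-shZEB1.

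**Figure D2:**
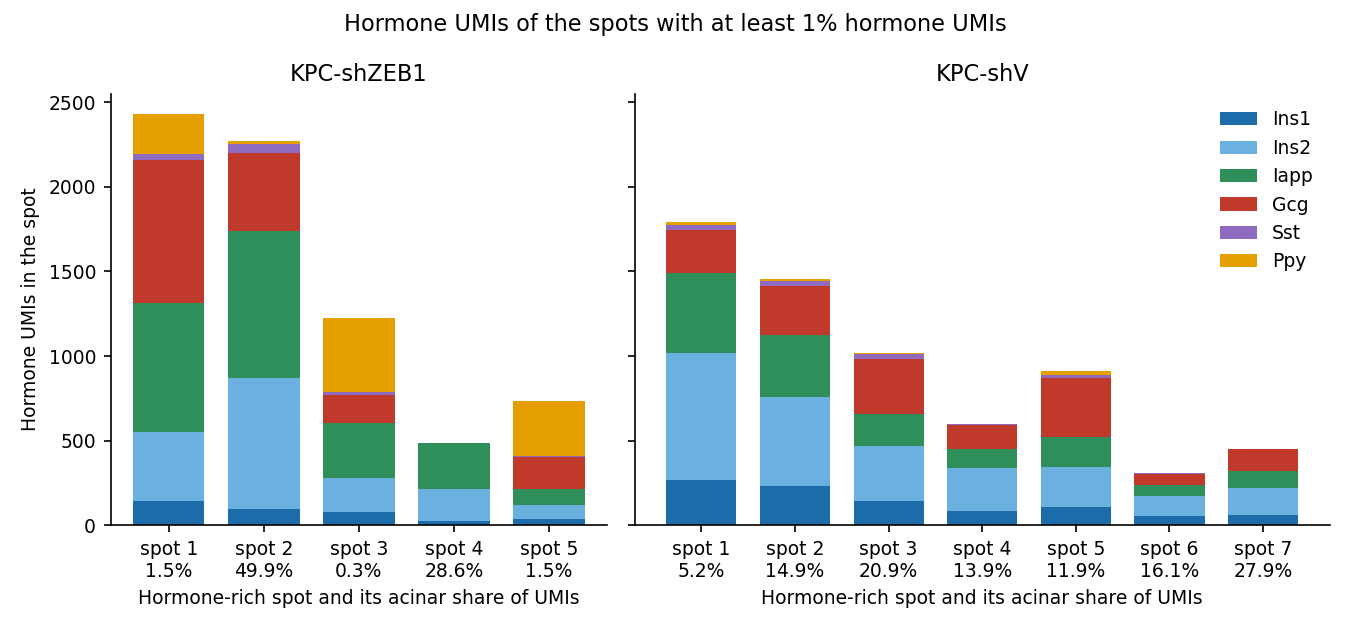
UMIs of each hormone (stacked, vertical axis) in the 5 and 7 hormone-rich spots, ordered by the hormone share of the spot's UMIs, with the acinar share of UMIs under each bar. Ppy (orange) is a visible part of 3 bars labelled KPC-shZEB1, all at 1.5% acinar UMIs or less, and of none labelled KPC-shV.

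Hormone-rich spots lay both within and outside acinar-rich tissue. Among those labelled KPC-shZEB1, 2 of 5 hormone-rich spots (40%, interval 5.27% to 85.3%) had over 20% acinar UMIs, as did 34.1% of all its spots. Among those labelled KPC-shV it was 2 of 7 (28.6%, 3.67% to 71.0%), against 6.95% of all its spots, while all 7 were above 5% acinar. Both intervals are wide, and each includes the share among all spots of its library. For the 7 spots above 5% acinar the interval was 59.0% to 100%. Their lowest acinar share was 5.2%, against a median of 0.0105% in the spots of that library under 0.1% hormone UMIs. Among all 3552 spots of that library, 120 had 5% to 20% acinar UMIs, 152 had 20% to 40% and 95 had above 40%. At a threshold of 0.1% hormone UMIs, 15 of 29 spots (51.7%, 32.5% to 70.6%) and 16 of 40 (40%, 24.9% to 56.7%) were acinar-rich. The first interval includes the 34.1% of all spots under KPC-shZEB1, and the second lies above the 6.95% under KPC-shV. Acinar-rich spots of KPC-shV were shallow, however, and so reached 0.1% with fewer hormone UMIs. Of the hormone UMIs themselves, 43.5% and 24.6% lay in acinar-rich spots. The highest band of hormone level was not the most acinar one. Under KPC-shV, spots of 5% to 20% acinar UMIs had 2743 CPM (2671 to 2817), those of 20% to 40% had 732 CPM, those above 40% had 200.5 CPM, and those under 0.1% had 18.8 CPM. In the 5% to 20% band, 1791 of 5496 hormone UMIs came from 1 spot, and 13 of its 120 spots reached 0.1% hormone UMIs. Under KPC-shZEB1 the highest band was 1% to 5% acinar, at 903 CPM, of which 2430 of 3388 hormone UMIs came from 1 spot, and spots above 40% acinar had 96.7 CPM.

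The hormones differed in where they lay. Ins2 had the largest share of its UMIs in acinar-rich spots in the section labelled KPC-shZEB1, 61.6% (59.9% to 63.2%), followed by Iapp (51.6%), Sst (41.7%), Ins1 (41.3%) and Gcg (35.4%), and for Ppy it was 6.48% (5.35% to 7.78%). Without the highest spot of each gene the shares were 49.9% for Ins2, 37.1% for Iapp, 31.2% for Sst, 50.6% for Ins1, 47.7% for Gcg and 8.82% for Ppy, so that of this order the place of Ppy last was kept and the order of the others was not. For KPC-shV, the shares were 29.6% for Gcg, 28.3% for Ins1, 28.0% for Ins2, 20.7% for Iapp and 12.1% for Sst, and 6.31% (4.80% to 8.12%) for Ppy, below the interval of Sst (8.94% to 15.8%). The intervals of Gcg, Ins1 and Ins2 overlapped one another there. The libraries differ in acinar-rich spots, so levels are needed beside these shares. Ppy was at 1.95 CPM in acinar-rich spots against 18.0 CPM in others under KPC-shZEB1, but at 8.7 against 5.02 CPM under KPC-shV. Every hormone was higher in acinar-rich spots under KPC-shV. Under KPC-shZEB1 Ins2 (37.3 against 14.9 CPM) and Iapp (35.4 against 21.3) were higher there, Ins1 and Sst were nearly level, and Gcg was lower (21.2 against 24.8).

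A split by acinar share, chosen after the values were seen, set Ppy and insulin apart in the 29 and 40 spots of at least 0.1% hormone UMIs. In spots under 5% acinar UMIs, Ppy made up 22.1% (13 spots, KPC-shZEB1) and 26.5% (11 spots, KPC-shV) of the summed hormone UMIs, and insulin 20% and 5.99%. In spots of 5% acinar UMIs or more, Ppy made up 1.45% in each library (16 and 29 spots), and insulin 42.3% and 49.4%. Without the spot with the most hormone UMIs on each side, Ppy was at 30.4% and 28.9% in the less acinar spots, and at 1.98% and 1.63% in the others. The less acinar spots left out had Ppy shares of 9.67% and 20.15%, below those of their sets. Leaving them out could thus only raise the share, and the spots with the highest Ppy shares were kept. Spot by spot, the share of Ppy ran from 5.77% to 44.5% (median 18.8%) in the less acinar spots labelled KPC-shZEB1 and from 0 to 8.57% (median 1.80%) in the more acinar ones, so the ranges overlapped in part. The corresponding ranges for KPC-shV ran from 1.25% to 54.3% (median 25.5%) and from 0 to 9.30% (median 0.333%). Insulin shares overlapped widely. In less and more acinar spots they ran from 4.55% to 30.8% and from 0 to 58.8% under KPC-shZEB1. Under KPC-shV they ran from 0 to 67.5% (median 1.71%) and from 6.98% to 100% (median 51.4%). Some more acinar spots of KPC-shV held as few as 3 hormone UMIs, so their shares are coarse.

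Gcg, by contrast, was high on both sides of that split. It made up 31.4% and 37.0% of the hormone UMIs in less acinar spots and 18.1% and 25.1% in more acinar ones. Without the spot with the most hormone UMIs on each side, Gcg was at 29.1% against 16.2% under KPC-shZEB1. Under KPC-shV it was then at 25.6% against 28.3%, so the direction there rests on 1 spot. Iapp stood at 25.4% and 28.9% in the former and at 36.2% and 22.4% in the latter, so its direction was opposite in the libraries. Sst was between 1.18% and 1.96% in all 4 sets.

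**Figure D3:**
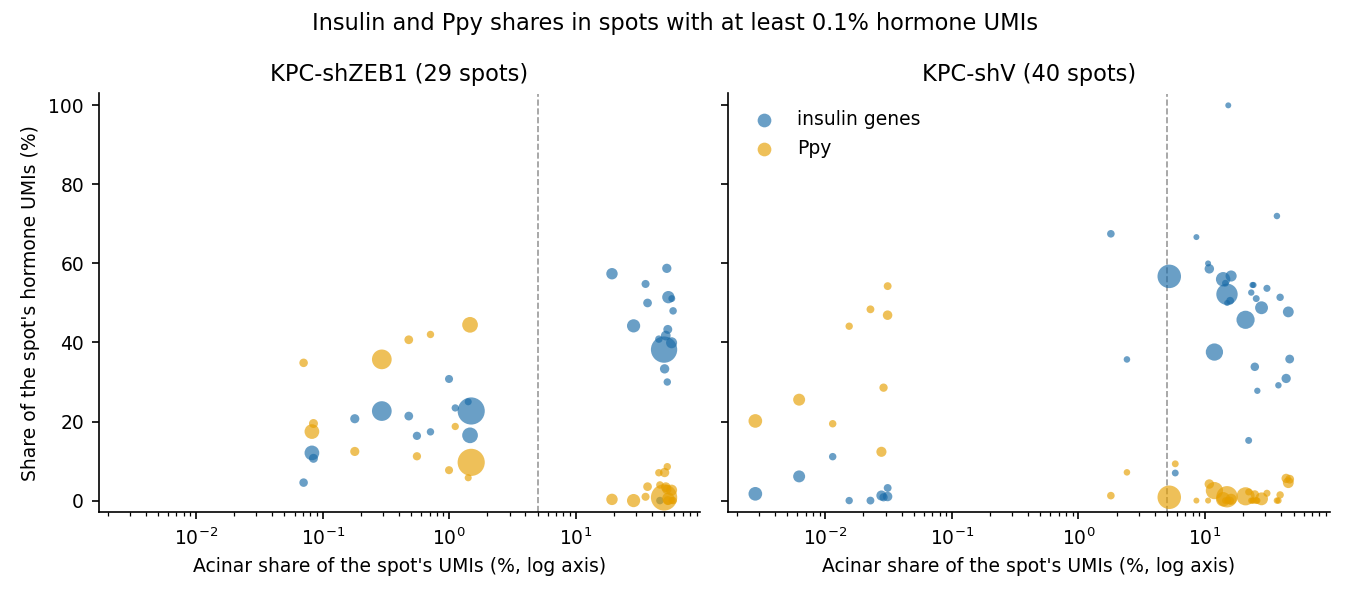
Share of a spot's hormone UMIs (vertical axis, %) from the insulin genes (blue) and from Ppy (orange) against the acinar share of the spot's UMIs (horizontal axis, %, log scale), with 1 pair of points per spot of at least 0.1% hormone UMIs, areas growing with the spot's hormone UMIs and the dashed line at 5%. Ppy points lie at up to 44.5% and 54.3% to the left of the line and at no more than 8.57% and 9.30% to its right.

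The 11 less acinar spots of the section labelled KPC-shV included 9 with under 1% acinar UMIs, in which insulin was scarce while Iapp, Gcg and Ppy were not. Sst was scarce there too, at 0 to 12 UMIs per spot. The largest by hormone share held 134 UMIs of Iapp, 117 of Gcg and 96 of Ppy beside 16 of Ins2 and 7 of Ins1. Another, of 142947 UMIs, held 349 UMIs of Gcg, the most of any spot of that library, with 106 of Ppy and 6 of Ins2. A further spot held 131 UMIs of Iapp and 1 of Ins2. Pyy, which encodes peptide YY of islet and gut endocrine cells, counted 27.0 UMIs per 100 hormone UMIs in the 11 spots against 3.14 in the 29 more acinar spots, and Chga, which encodes the granule protein chromogranin A, 20 against 10.1. Per 10000 UMIs of the spots, Pyy was still higher in the less acinar ones (7.24 against 4.09), whereas Chga was lower there (5.36 against 13.2). The keratin and other ductal or tumor genes were at 59.3 per 10000 UMIs against 8.40, and the 11 gut genes at 1.08 against 0.212. In the section labelled KPC-shZEB1, Pyy was at 12.9 against 3.31 per 100 hormone UMIs and Chga at 9.84 against 8.58. Per 10000 UMIs, Pyy was at 10.5 against 1.90 there. Chga, unlike under KPC-shV, was higher in the less acinar spots (8.01 against 4.91). Ductal or tumor genes in that section were at 11.3 against 3.51 and gut genes at 0.432 against 0.0673 per 10000 UMIs. These list contrasts are with the more acinar spots only. Outside hormone-rich spots, KPC-shV held 1029822 ductal or tumor and 29807 gut UMIs of 171912568, and KPC-shZEB1 held 491809 and 25335 of 140220946. By these counts the less acinar spots were not above their sections in either list. Of the 76 gut UMIs in the 11 spots, 45 were of Vil1 and 21 of Alpi, with 19 of the latter in 1 spot. What part surrounding tissue had in this split was not tested.

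Hormones of different islet cell types were counted in the same spots. At a minimum of 10 UMIs, 50 and 42 spots had at least 1 of the hormones, 34 of 50 and 28 of 42 had at least 2, and 3 and 4 spots had all 6. Every spot with 10 UMIs of Ins1 (15 and 14) also had 10 of Ins2 and of Iapp. Of those spots 73.3% and 100% had 10 of Gcg, the alpha cell hormone. Of the spots with 10 UMIs of Ppy (16 in each library), 81.2% and 87.5% had 10 of Gcg, and 68.8% and 43.8% had 10 of Ins2. Sst reached 10 UMIs in 5 spots of each library, and 4 and 5 of them had 10 of Gcg. Gcg was the hormone most often found alone (7 spots in each library). With a minimum of 30 UMIs, 21 of 26 and 20 of 26 spots had at least 2 hormones. Since a spot covers several cells, this does not place hormones in the same cell.

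**Figure D4:**
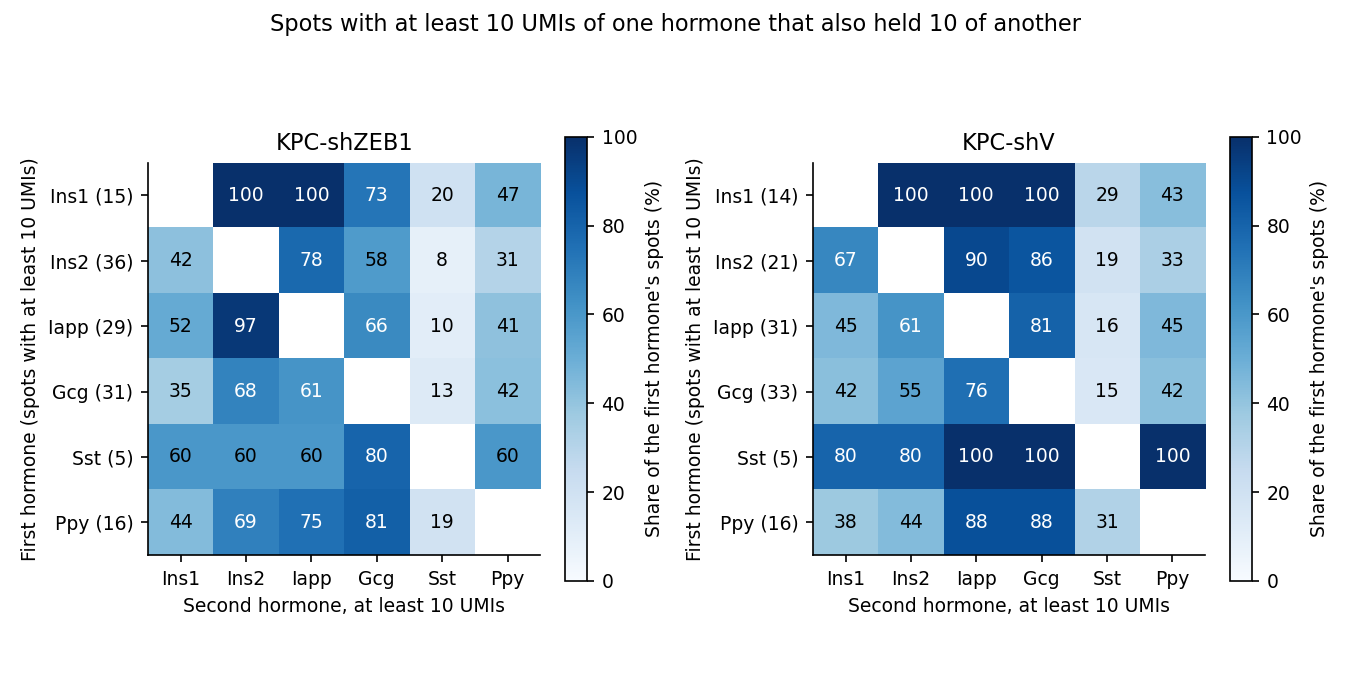
Share (%, colour and number) of the spots with at least 10 UMIs of the first hormone (rows, spot numbers in brackets) that also had at least 10 UMIs of the second (columns), for each library. The Ins1 rows reach 100% for Ins2 and Iapp, and the Sst columns stay at or below 20% and 31.2%.

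Genes of hormone processing and granules were concentrated in the same spots. By the smaller of both libraries' Pearson correlations with the hormone sum over spots, on the log2 scale of UMIs per 10000 with 1 added, the 10 genes most like it among 15352 were Pcsk1n, Chga, Resp18, Scg2, Chgb, Scg3, Scg5, Pyy, Kcnk16 and Celf3. The correlation was 0.73 and 0.69 for Pcsk1n, 0.82 and 0.66 for Chga, and down to 0.39 and 0.37 for Celf3, which encodes an RNA-binding protein. Resp18 encodes a granule protein of neuroendocrine cells and Kcnk16 a potassium channel of beta cells. Ranked genes had at least 100 UMIs in each library. Kcnk16, with 90 outside hormone-rich spots under KPC-shZEB1, met this only through those spots. The points share a library and its depth, the spots are not independent, and most hold no hormone UMI. The same 10 genes came first with hormone UMIs taken out of each spot's total.

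Relative to all other spots of the library, 8 of 13 processing and granule genes with at least 100 UMIs were over 8-fold higher in hormone-rich spots in the section labelled KPC-shZEB1 and 8 of 12 in the section labelled KPC-shV, counting a gene only where its whole interval lay above a log2 ratio of 3. Of all genes outside the 6, 0.397% and 0.599% did so (61 of 15383 and 108 of 18033). The minimum counted the hormone-rich spots too. Under KPC-shZEB1, the list genes Pcsk1 and Scgn had 99 and 90 UMIs elsewhere and met it only through those spots. Chga had a log2 ratio of 8.88 (689 UMIs in the 5 spots, 754 elsewhere) and 9.50 (665 in the 7 spots, 1076 elsewhere). For Scg2, which encodes secretogranin 2, it was 8.59 and 8.53, and for Pcsk1n, which encodes an inhibitor of the prohormone convertase PCSK1, it was 7.92 and 8.91. The convertase genes Pcsk1 and Pcsk2 stood at 6.77 and 9.32 and at 8.46 and 8.44, from 21 and 12 UMIs and from 26 and 19 UMIs in hormone-rich spots, and the minimum of 100 UMIs was met only by Pcsk1 under KPC-shZEB1. Pam and Cpe, which encode further processing enzymes, stayed under a log2 ratio of 3 in both libraries (Pam 1.09 and 0.47, Cpe 2.03 and 1.17), with most of their UMIs elsewhere.

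Of 11 beta cell genes, 6 passed in each library. Of these, Abcc8 under KPC-shZEB1 had 95 UMIs elsewhere and met the minimum only through hormone-rich spots. G6pc2, which encodes an islet glucose-6-phosphatase, was at 6.64 and 6.79, Slc30a8, which encodes the zinc transporter of insulin granules, at 7.09 and 6.86, Abcc8, a subunit of the potassium channel closed by sulfonylureas, at 5.61 and 6.37, and the transcription factor genes Nkx6-1 at 5.84 and 5.99 and Mafa at 4.91 and 6.60. Pdx1, a transcription factor of beta cells that tumor cells can also express, was at 1.15 (-0.73 to 2.51) and 0.48 (-1.80 to 2.03), with 4 and 3 UMIs in hormone-rich spots. Slc2a2, which encodes the glucose transporter GLUT2, had 0 and 1 UMIs there, and Kcnj11 had 0 in both. The alpha cell list passed with Ttr alone in each library (1 of 5 and 1 of 7 genes), at 5.02 and 4.94. None of the delta cell genes passed (Hhex 1.87 and 1.74, Rbp4 2.33 and 1.22). Among the transcription factors of endocrine cells, 1 of 7 passed in the section labelled KPC-shZEB1 (Pax6, 6.94) and 2 of 7 in the section labelled KPC-shV (Neurod1, 6.13, and Nkx2-2, 5.23). With 88 UMIs elsewhere, Pax6 met the minimum under KPC-shZEB1 only through hormone-rich spots. Pax6 was at 6.78 under KPC-shV, where its 93 UMIs were under the minimum, and under KPC-shZEB1 Neurod1 was at 4.30 (from 2.96) and Nkx2-2 at 3.98 (from 2.91). Of the hormone receptor genes, 0 of 11 and 1 of 15 passed, the 1 being Glp1r, which encodes the GLP-1 receptor (4.39, against 3.03 with an interval from 2.42 in the other library).

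**Figure D5:**
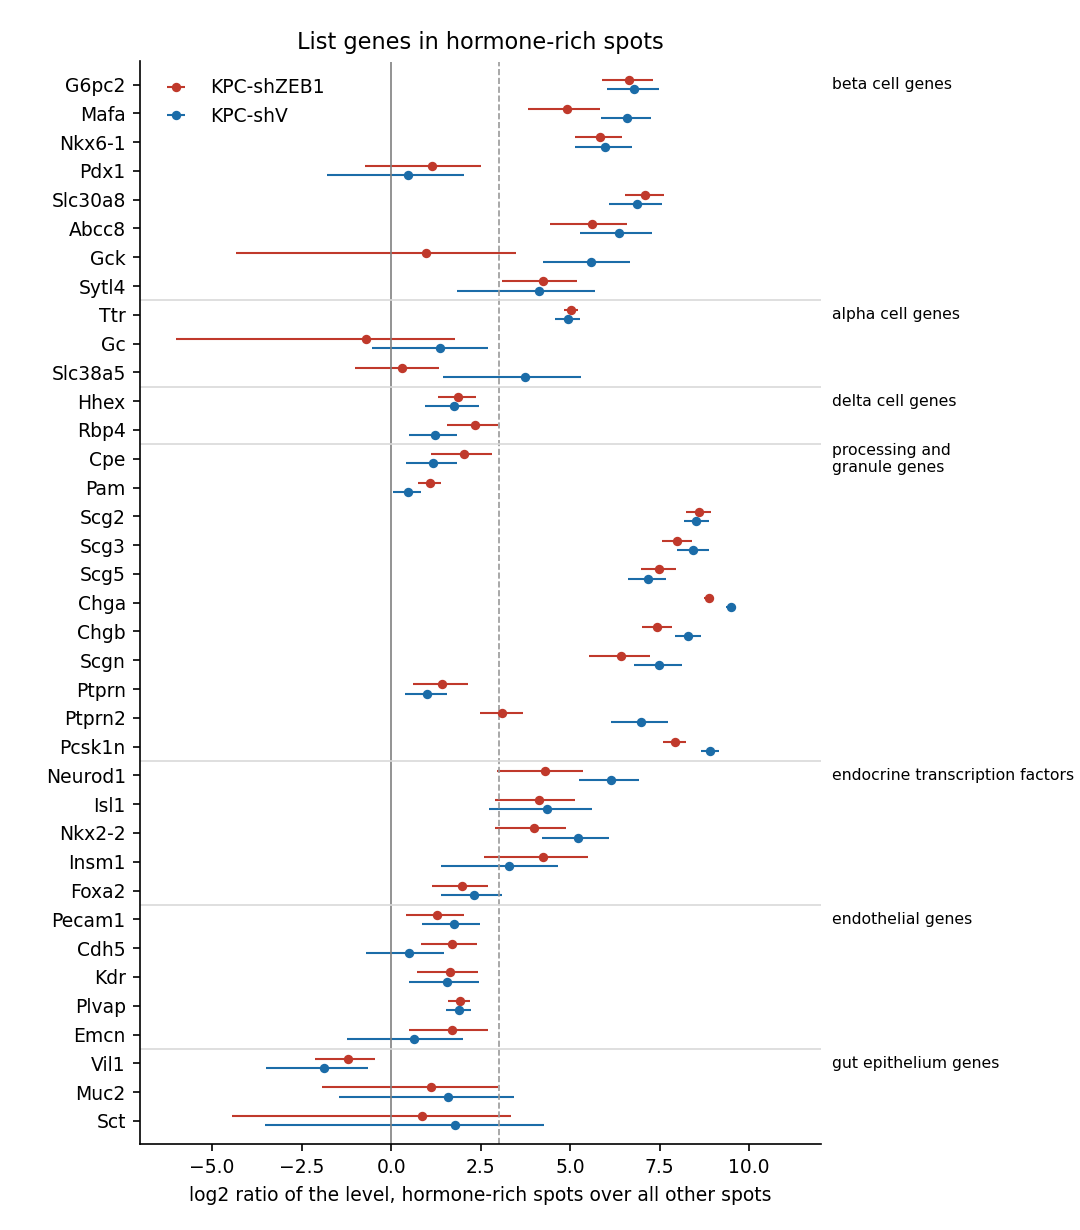
Log2 ratio of the level in hormone-rich spots over all other spots (horizontal axis) for the list genes reported here that were past the minimum of 100 UMIs and with at least 1 UMI in the hormone-rich spots of each library, with exact 95% counting intervals as bars, red for KPC-shZEB1 and blue for KPC-shV, and the dashed line at 3. Chromogranin and secretogranin genes lie between 7.17 and 9.50, and endothelial genes between 0.51 and 1.91.

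Markers of other tissues moved with the hormone-rich spots to a lesser degree. The 5 endothelial genes had medians of 1.69 and 1.56 (Plvap 1.91 and 1.88), with every interval above 0 except those of Cdh5 (-0.71 to 1.49) and Emcn (-1.22 to 2.01) under KPC-shV. All 5 fibroblast genes had intervals above 0 in both libraries, with medians of 1.18 and 1.50. Over all genes outside the 6 hormones the medians were 0.02 and -1, with genes of 0 UMIs in the hormone-rich spots ranked lowest. Without those genes the medians were 0.26 and -0.13. The share of all genes with an interval above 0 was not counted, so these endothelial and fibroblast counts have no background beside them. Of the 7 ductal or tumor genes, the 3 keratin genes were lower in both libraries, with Krt7 at -2.20 and -3.47 and Krt19 at -2.23 and -4.00, but the list as a whole had medians of 0.01 and -2.70, and under KPC-shZEB1 Sox9 was at 1.14 (0.63 to 1.61) and Cftr at 1.29 (0.16 to 2.22). The 5 macrophage genes had medians of 0.58 and -0.19. The 19 acinar genes had a median of -0.34 in the section labelled KPC-shZEB1 and of 3.24 in the section labelled KPC-shV, where 10 of them passed. Of the gut list, 18 and 8 UMIs lay in hormone-rich spots, mostly Vil1 (13 and 5), with Alpi, Apoa4, Cck and Gast at 0. The 10 hormone genes of other organs summed to 2 and 3 UMIs there. Against other acinar-rich spots, 7 of 7 and 5 of 5 processing and granule genes tested reached a log2 ratio of at least 1. So did 81.3% and 37.4% of all genes, and this comparison therefore says little about the list. The list medians were 8.22 and 7.14, against 1.89 and 0.79 over all genes. Both list medians are the values of Pcsk1n, whose 126 and 182 UMIs in hormone-rich spots passed the minimum by themselves. Genes with few UMIs elsewhere were tested only if high in hormone-rich spots, so nothing is concluded from the medians.

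Pyy was not confined to the hormone-rich spots. It had 5085 and 2241 UMIs, of which 12.2% and 7.90% lay in hormone-rich spots, and its highest spot in the section labelled KPC-shZEB1 held 455 Pyy UMIs but 0.00122% hormone UMIs. Among spots of under 0.1% hormone UMIs that had at least 10 UMIs of Pyy, 50 of 76 (65.8%) and 19 of 29 (65.5%) also had at least 10 UMIs of the gut list, against 32.7% and 29.8% of all spots. Among spots of at least 0.1% hormone UMIs with 10 UMIs of Pyy it was 1 of 13 and 3 of 17. Depth was not evened here. Spots of at least 0.1% hormone UMIs had a median of 23146.5 UMIs under KPC-shV, against 52712 in the spots below that threshold. Under KPC-shZEB1 the medians were 55175 and 60003. Most UMIs of the gut list were of Vil1 (15495 and 21483), so 10 UMIs of the list need not mark gut tissue.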

How the data were processed

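Per the labels and the study's methods, tumor tissue was frozen in OCT, fixed with methanol, stained and read with Visium CytAssist probes. The authors ran Space Ranger 2.0.1 against mm10, kept the spots over tissue and deposited the counts as raw UMIs for every gene in every spot. Probe counts do not see RNA outside the probes, and free RNA can add counts to any spot. From the counts, levels (CPM), log2 ratios and shares were computed with exact Poisson, conditional binomial and binomial intervals at the 95% level, in Python 3.11.15 with numpy 2.4.6, scipy 1.17.1 and pandas 2.3.3 (alignment with Biopython 1.88, plots with matplotlib 3.10.9). Thinning drew 5000 UMIs per spot without replacement (seed 1). The steps were tested on simulated data. Named genes are the 6 members, the genes of 15 lists and the 10 most alike by correlation among genes of at least 100 UMIs in each library. Of the lists, Ero1b, Krt18 and 5 acinar genes (Prss1, Try5, Cpb1, Pnliprp1 and Amy2b) had no matching symbol and were not used here. Members and lists were chosen with earlier results of these data known. The log2 threshold of 3 over all other spots and the split at 5% acinar UMIs were chosen after seeing the data. Images, spot positions and the single-cell libraries were not used here, and no cell type makeup was estimated. Some list genes and alleles are not reported here.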

Additional observations from a re-analysis of the deposited data

How the results depend on the processing

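The log2 ratio of the six-hormone level (0.48) was -2.09 in acinar-rich spots only, -3.31 with acinar UMIs as the total and -0.20 when the CPM of single spots were averaged. It stayed positive at 0.72 and 2.11 with spots over 20% or 5% acinar left out, 0.83 with acinar genes out of the total, 0.85 and 0.33 without the 1% or 5% of spots with the most hormone UMIs, 0.43 without the highest spot (chosen after seeing the data), 0.96 by median of ratios, 0.65 without the insulin genes and 0.40 as a mean over genes. The cause was not tested. The Ppy ratio (1.19) was -2.16 in acinar-rich spots only and -2.61 with acinar UMIs as the total. Hormone-rich spots (0.225% and 0.197%) were 1.31% and 1.13% at a threshold of 0.1% and 0.0450% and 0.0563% at 5%, where 0% were acinar-rich in both libraries. In the section labelled KPC-shV, 100% of hormone-rich spots were over 5% acinar and 0% over 40%. Thinned detection (7.63% and 6.39%) was 33.4% and 26.2% without thinning, 3.97% and 3.56% at 2000 UMIs, 17.1% and 13.3% at 20000, and 2.89% and 1.87% for at least 2 hormone UMIs, since depth sets it. For Ins1, the setting without its 5% richest spots gave no ratio, since 0 UMIs remained in the section labelled KPC-shV. No paired analysis was possible because each label has 1 library. The main limits are 1 section per label, shallow acinar-rich spots in the section labelled KPC-shV, and hormone totals that rest on 5 and 7 spots.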
